A study of Mus musculus with 27 samples.

Results

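A set of 10 genes was followed by name through colon RNA-seq libraries of mice, namely the AP-1 genes Fos, Fosb, Fosl1, Fosl2, Jun, Junb and Jund and the early response genes Atf3, Egr1 and Ier3. All 10 were found as 1 row each among the 39971 genes of the table, and they were found by symbol. The mice were wild-type BALB/c in 5 groups. CAC_FPL mice (n = 6) were treated with the carcinogen azoxymethane (AOM) and with DSS, dextran sulfate sodium, which injures the colon lining, and then with FOLFOX by intraperitoneal injection together with a complex of probiotics and loperamide by gavage. CAC_FP mice (n = 5) received AOM/DSS, FOLFOX and the probiotics. CAC_F mice (n = 5) received AOM/DSS and FOLFOX with saline by gavage. CAC mice (n = 5) received AOM/DSS and saline only, and NC mice (n = 6) received saline only. FOLFOX combines the cytotoxic drugs fluorouracil and oxaliplatin with folinic acid, and loperamide slows bowel movement through opioid receptors. Tissue was taken 1 week after chemotherapy began, as a tumor-bearing segment of colon in the 4 AOM/DSS groups and as colon in NC, so that AOM/DSS exposure and tissue source cannot be told apart. The labels do not give the age of the mice.

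Immediate early genes are transcribed within minutes of a growth signal, stress or injury, without new protein synthesis, and most of their transcripts decay fast. The FOS proteins (Fos, Fosb, Fosl1, Fosl2) cannot pair with each other and bind DNA as dimers with a JUN protein (Jun, Junb, Jund), while JUN proteins can also pair among themselves, and either kind of dimer is called AP-1. Atf3 is a stress-induced factor of the same leucine zipper class, Egr1 a zinc finger factor induced through serum response factor, and Ier3 a small early response protein that affects cell survival. In the gut these genes are known to respond to wounding, inflammation and Wnt or MAP kinase signals.

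The promoters of Fos, Fosb, Jun and Junb are shown because the levels of these genes varied together across libraries. RefSeq gave a window for 8 of the 10 genes on GRCm38.p6, from 250 bases before to 50 after the annotated start, and the 250 bases before it are printed for 4 of them. The capitals mark TGACG, searched on both strands, which is the core of the site bound by CREB and ATF factors, and TGACATCA, the variant known from the Jun promoter. The printed bases lie at chr12:85473640-85473889 (plus strand), chr7:19310046-19310295 (minus strand), chr4:95052223-95052472 (minus strand) and chr8:84978749-84978998 (minus strand).
Fos: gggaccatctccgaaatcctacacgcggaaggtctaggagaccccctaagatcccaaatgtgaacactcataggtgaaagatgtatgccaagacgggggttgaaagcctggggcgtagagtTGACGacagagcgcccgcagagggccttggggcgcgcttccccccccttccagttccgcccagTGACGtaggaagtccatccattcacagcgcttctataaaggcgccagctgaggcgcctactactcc
Fosb: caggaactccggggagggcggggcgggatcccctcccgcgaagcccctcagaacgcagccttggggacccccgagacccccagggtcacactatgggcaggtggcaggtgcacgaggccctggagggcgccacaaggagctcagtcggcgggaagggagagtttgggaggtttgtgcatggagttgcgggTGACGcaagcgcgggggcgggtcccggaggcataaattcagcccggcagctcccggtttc
Jun: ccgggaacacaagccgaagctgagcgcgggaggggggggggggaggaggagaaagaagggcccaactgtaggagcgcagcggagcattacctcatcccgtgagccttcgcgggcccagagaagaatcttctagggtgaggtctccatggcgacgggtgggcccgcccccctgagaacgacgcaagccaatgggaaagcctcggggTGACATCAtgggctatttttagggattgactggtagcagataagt
Junb: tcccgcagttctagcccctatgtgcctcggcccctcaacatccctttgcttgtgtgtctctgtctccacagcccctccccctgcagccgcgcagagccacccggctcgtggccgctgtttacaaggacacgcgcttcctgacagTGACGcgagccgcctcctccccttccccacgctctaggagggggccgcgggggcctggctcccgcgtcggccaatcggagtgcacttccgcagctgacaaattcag

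Counting the annotated start as 0, Fos held TGACG at -129 to -125 and at -66 to -62, Fosb at -60 to -56 and Junb at -106 to -102, while Jun held TGACATCA at -45 to -38. Of all 32851 promoters in the table, 20.8% held TGACG and 3.62% held TGACATCA on either strand. Among the other matched members, Atf3 had TGACG on the minus strand at -7 to -3, and Fosb and Fosl2 had the EGR site GCGGGGGCG at -50 to -42 and -79 to -71, a motif in 2.91% of promoters. The full AP-1 site TGANTCA, which is in 7.81% of promoters, TGACGTCA, in 1.79%, and the CArG box of serum response factor, in 1.63%, were not in any of the 8 windows. Sites more than 250 bases before the start were not searched, so a promoter may hold these motifs farther upstream. Such matches describe letters in a window and were not measured as binding.

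Depth was high and even, with 56687812 to 79709845 counts per library. Levels are given as CPM, counts scaled to a common library size after TMM normalization. A gene was called changed at an adjusted p below 0.05 in edgeR's quasi-likelihood test with Benjamini-Hochberg adjustment over 15080 genes, fitted once over all 27 libraries, and fold changes are log2 values ± SE. Colon epithelium markers were present in every group. A few libraries stood apart in the genes described here. Replicate 2 of NC was the highest NC library for 8 of the 10 genes, against 24.2% of all genes tested. Replicate 1 of CAC_F was the highest of its group for 7 of 10 (all genes 21.7%), and replicate 6 of CAC_FPL for 5 of 10 (all genes 18.8%). The main fold changes that rest on these libraries are given with and without them. Since whole tissue was sequenced, fewer cells of a type and less RNA per cell cannot be told apart.

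Per unit of gene length, Jund was the most abundant of the 10, with a median of 139 FPKM over the 27 libraries (109 to 343). Junb followed at 48.3 FPKM, then Jun at 26.9 and Fos at 26.1 FPKM. Jun (18.3 to 174 FPKM) and Fos (7.60 to 211 FPKM) overlapped almost entirely and could not be ordered. Ier3 (17.2 FPKM), Fosl2 (15.4 FPKM), Egr1 (10.7 FPKM) and Atf3 (8.19 FPKM) also overlapped one another in range. Fosb and Fosl1 were low, at medians of 0.63 and 0.22 FPKM. The filter asked for 1 FPKM in at least 5 libraries and all 10 genes passed it, but Fosb reached 1 FPKM in only 7 libraries and Fosl1 in 9. The 9 libraries for Fosl1 were 1 of CAC_FPL, 4 of CAC_FP and 4 of CAC_F, so this gene passed only through groups where it was high.

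**Figure D1:**
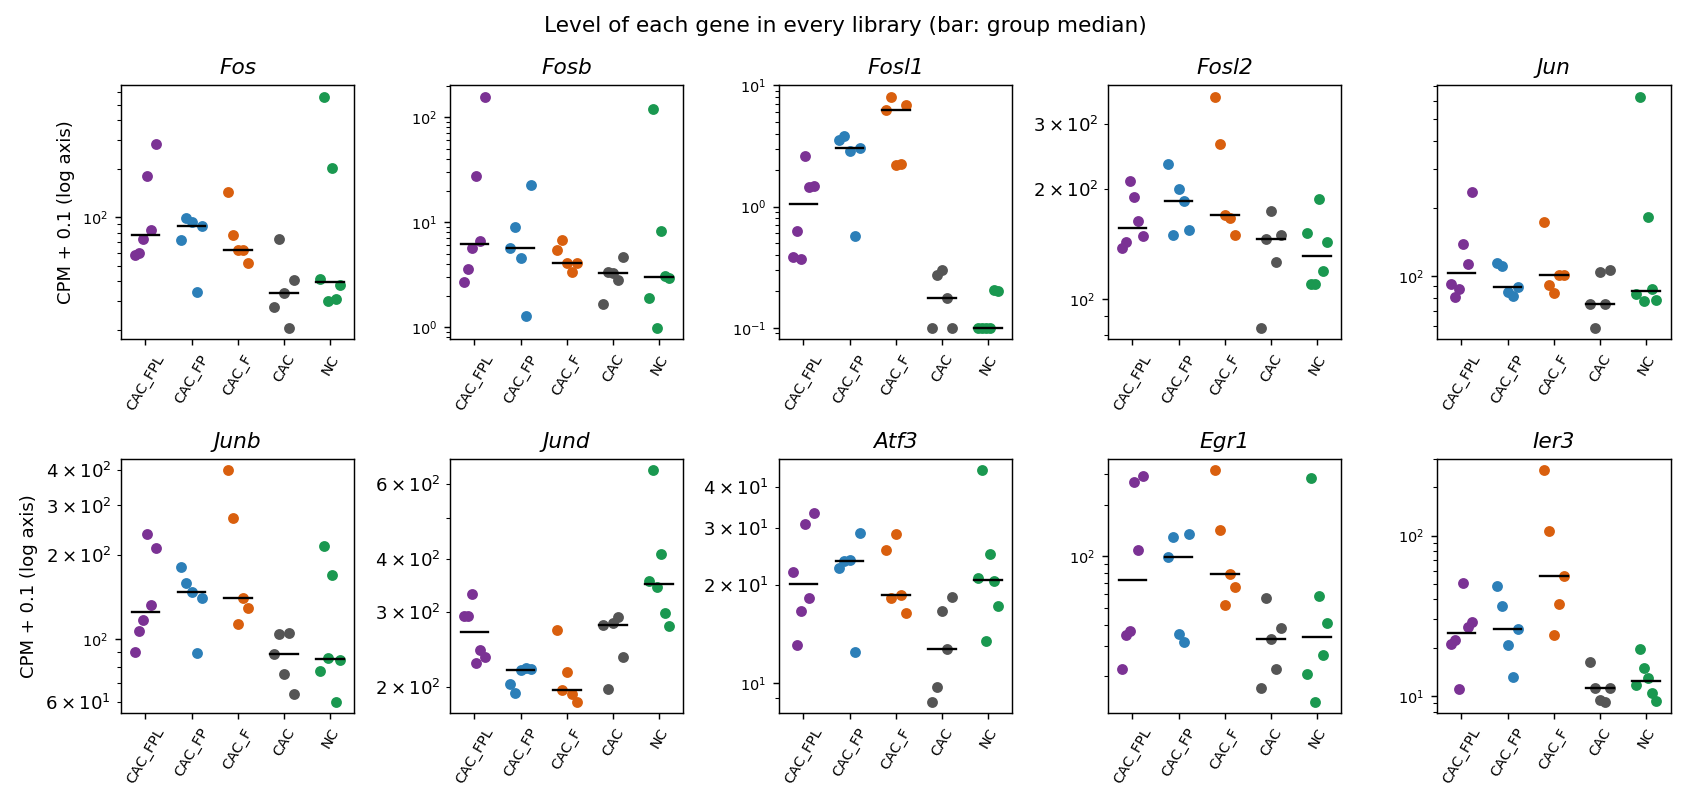
Level of each gene in every library, as CPM + 0.1 on a log axis, with points for libraries and bars for group medians. Fosl1 lay between 2.11 and 7.99 CPM in CAC_F and at or under 0.200 CPM in CAC, while 1 NC library stood at 561 CPM for Fos and 628 CPM for Jun.

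Fosl1, whose protein FRA-1 is an AP-1 subunit linked to migration and wound repair in epithelia, had the largest edgeR fold change of the 10 genes in CAC_F against CAC, while on log2(FPKM + 1) its change of 1.60 was below the 2.54 of Ier3. Its level in CAC_FPL was 0.270 CPM at the lowest, 0.948 at the median and 2.51 at the highest, and in CAC_FP it was 3.46, 3.74, 2.75, 0.473 and 2.93 CPM over replicates 1 to 5. In CAC_F it was 6.15, 7.99, 2.11, 2.15 and 6.83 CPM. In CAC it was 0, 0.173, 0.200, 0.0750 and 0 CPM, and in NC 0 at the lowest, 0 at the median and 0.104 CPM at the highest. Every library of the 3 FOLFOX groups was above every CAC and NC library, and these levels correspond to 481, 940 and 1744 counts in all in CAC_FPL, CAC_FP and CAC_F, against 29 in CAC and 14 in NC. Fosl1 rose in CAC_F against CAC by 5.78 ± 0.97 (adjusted p = 0.000138, edgeR), in CAC_FP against CAC by 4.87 ± 0.94 (adjusted p = 0.00244) and in CAC_FPL against CAC by 3.53 ± 0.89 (adjusted p = 0.0458). These 3 comparisons share the CAC libraries. With no filter on low values the first 2 were still called (5.82, adjusted p = 0.000298, and 4.91, adjusted p = 0.00515) and CAC_FPL was not (3.56, adjusted p = 0.0938). In CAC_FPL against CAC_F it fell by 2.25 ± 0.74 on the log2 scale (adjusted p = 0.0485), with overlapping groups. Both calls of CAC_FPL lay close to the threshold. The call against CAC was lost on leaving out any 1 of 13 libraries, namely replicate 4, 5 or 6 of CAC_FPL, 1, 2 or 5 of CAC_FP, 5 of CAC_F, 1, 3, 4 or 5 of CAC, or 3 or 6 of NC, with fold changes of 3.08 to 4.03 and adjusted p of 0.0504 to 0.134. The call against CAC_F was lost on leaving out any 1 of 16, namely replicate 1, 2 or 3 of CAC_FPL, 1, 2, 3 or 5 of CAC_FP, 1, 2 or 5 of CAC_F, 3 or 4 of CAC, or 1, 3, 4 or 6 of NC, with fold changes of -2.26 to -2.03 and adjusted p of 0.05004 to 0.118.

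Fosl2, which encodes the AP-1 subunit FRA-2, reached its highest levels in 2 CAC_F libraries, although its median was highest in CAC_FP. It was at 138 CPM at the lowest, 156 at the median and 209.8 at the highest in CAC_FPL. In CAC_FP it was 233, 150.0, 199, 185 and 155 CPM, and in CAC_F 357, 265, 170.0, 167 and 149 CPM. In CAC it was 83.4, 145, 174, 126 and 150.0 CPM, and in NC 109.9 at the lowest, 131 at the median and 187 at the highest. CAC_F replicates 1 and 2 were the 2 highest of all libraries and the other 3 overlapped CAC. Fosl2 rose in CAC_F against CAC by 0.71 ± 0.22 (adjusted p = 0.0138, edgeR). Without replicate 1 of CAC_F the change was 0.49 ± 0.20 and no longer passed (adjusted p = 0.0635), and with only the groups compared it was 0.73 ± 0.27 (adjusted p = 0.0626).

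Fos and Fosb, the classical immediate early members, spread widely within groups. Fos was at 58.0 CPM at the lowest, 77.5 at the median and 286 at the highest in CAC_FPL. It was 72.4, 99.1, 92.7, 34.0 and 87.8 CPM in CAC_FP, 144, 77.6, 62.7, 62.0 and 51.9 CPM in CAC_F, and 27.6, 72.7, 33.5, 20.4 and 40.4 CPM in CAC. In NC its lowest value was 29.9, its median 39.4 and its highest 561 CPM. All groups overlapped, and the NC group spanned both low and very high levels. Fos differed from CAC by 1.66 ± 0.67 in CAC_FPL (adjusted p = 0.179, edgeR), by 0.99 ± 0.68 in CAC_FP (adjusted p = 0.308) and by 1.03 ± 0.68 in CAC_F (adjusted p = 0.232), none of which passed. Without replicate 6 of CAC_FPL its change there was 1.23 ± 0.66 (adjusted p = 0.367). Fosb had a median of 6.06 CPM in CAC_FPL with a highest value of 157 CPM in replicate 6, and its other libraries there lay between 2.59 and 27.4 CPM. It was 5.59, 8.99, 4.46, 1.17 and 22.6 CPM in CAC_FP, and its range was 3.24 to 6.60 CPM in CAC_F and 1.56 to 4.55 CPM in CAC. In NC it had a median of 2.91 CPM and reached 120.0 CPM in replicate 2. Fosb differed from CAC by 3.47 ± 1.22 in CAC_FPL, which did not pass (adjusted p = 0.127, edgeR), and by 1.59 ± 1.01 without replicate 6 of CAC_FPL (adjusted p = 0.456). With all libraries, DESeq2 called Fosb in CAC_FPL against CAC (3.47 ± 1.02, adjusted p = 0.0212).

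Of the JUN genes, Junb separated CAC_F from CAC. Junb encodes a subunit that often restrains growth-promoting AP-1 activity. It was 89.8 CPM at the lowest, 125 at the median and 237 at the highest in CAC_FPL, and 181, 158, 147, 89.3 and 141 CPM in CAC_FP. It was 400.3, 270.0, 114, 140.4 and 129 CPM in CAC_F and 88.4, 104, 75.3, 105 and 63.8 CPM in CAC, with NC at 60.0, 85.1 and 215 CPM for the lowest, median and highest library. Every CAC_F library was above every CAC library. Junb rose in CAC_F against CAC by 1.27 ± 0.365 (adjusted p = 0.00841, edgeR), and by 0.93 ± 0.35 without replicate 1 of CAC_F (adjusted p = 0.0440). In CAC_FP against CAC its change of 0.71 ± 0.36 did not pass (adjusted p = 0.163).

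Jun, the founding member of the family, did not pass in any comparison. It was 80.7, 103 and 236 CPM for the lowest, median and highest library of CAC_FPL. It was 115, 111, 84.4, 81.4 and 89.0 CPM in CAC_FP, 174, 90.9, 83.9, 101 and 101 CPM in CAC_F, 74.8, 58.8, 104, 75.1 and 106 CPM in CAC, and 77.4, 85.5 and 628 CPM for the lowest, median and highest of NC. The group medians lay between 75.1 and 103 CPM, and the 4 highest libraries were replicates 2 and 4 of NC, replicate 6 of CAC_FPL and replicate 1 of CAC_F.

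Jund, a subunit usually present in resting cells, had its highest median in NC. It was at 228, 268 and 331 CPM for the lowest, median and highest library of CAC_FPL. It was 203, 193, 219, 221 and 219.7 CPM in CAC_FP, 272, 196, 216, 192 and 185 CPM in CAC_F and 280.1, 198, 282, 291 and 235 CPM in CAC, and in NC it was 279, 349 and 646 CPM for the lowest, median and highest. Every CAC_FPL library was above every CAC_FP library, which held in that direction for 1 of the 10 members and for 0.166% of all genes tested. The change of 0.36 ± 0.17 in CAC_FPL against CAC_FP did not pass (adjusted p = 0.748, edgeR; unadjusted p = 0.0412).

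Ier3 had the smallest p of the 10 genes in CAC_F against CAC in edgeR's test. It was 10.9, 24.6 and 50.7 CPM for the lowest, median and highest library of CAC_FPL. In CAC_FP it was 48.4, 36.2, 20.7, 13.0 and 26.0 CPM, and in CAC_F 255, 107, 23.8, 37.5 and 55.7 CPM. In CAC it was 16.3, 11.2, 9.41, 9.13 and 11.1 CPM, and in NC 9.19, 12.2 and 19.6 CPM for the lowest, median and highest. Every CAC_F library was above every CAC and NC library, and CAC_F replicate 1 was far above the others. Ier3 rose in CAC_F against CAC by 3.07 ± 0.50 (adjusted p = 0.000120, edgeR), and by 2.32 ± 0.41 without replicate 1 of CAC_F (adjusted p = 0.000433). In CAC_FP against CAC its change of 1.34 ± 0.48 missed the threshold (adjusted p = 0.0509). Limma on log2(FPKM + 1) and voom did not call it there either, while DESeq2 (adjusted p = 0.0196) and limma on log2(FPKM + 0.1) (0.0485) did. Ier3 was also called there by edgeR with RLE size factors (0.0490) and with only the groups compared (0.0251). It fell in CAC_FPL against CAC_F by 1.84 ± 0.45 on the log2 scale (adjusted p = 0.0151), a call that was lost without replicate 1 of CAC_F (-1.08 ± 0.38, adjusted p = 0.0917).

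Egr1 and Atf3 were close to the threshold in CAC_F against CAC. Egr1 was 22.1, 72.5 and 292 CPM for the lowest, median and highest library of CAC_FPL. It was 99.4, 129, 35.3, 31.6 and 135 CPM in CAC_FP, 318, 142, 52.0, 79.2 and 66.0 CPM in CAC_F and 16.9, 57.4, 33.1, 22.1 and 37.9 CPM in CAC, and in NC it was 14.1, 33.6 and 285 CPM for the lowest, median and highest. CAC_F and CAC overlapped in a single pair of libraries. Egr1 differed in CAC_F against CAC by 1.97 ± 0.80 (adjusted p = 0.0540, edgeR) and Atf3 by 0.71 ± 0.30 (adjusted p = 0.0664). Without replicate 1 of CAC_F the changes were 1.36 ± 0.80 for Egr1 (adjusted p = 0.193) and 0.66 ± 0.33 for Atf3 (adjusted p = 0.118). DESeq2 called both (adjusted p = 0.0266 for Egr1 and 0.0444 for Atf3), as did edgeR with only the groups compared (0.0171 and 0.0424), and limma called Atf3 on log2(FPKM + 1) and log2(FPKM + 0.1) (0.0388 and 0.0345). Without replicate 2 of NC, a library of neither group, both passed at the same fold change (adjusted p = 0.0242 for Egr1 and 0.0382 for Atf3). Egr1 also passed on leaving out any 1 of 7 others, namely replicate 1, 3 or 6 of CAC_FPL, 3 or 5 of CAC_F, 2 of CAC or 3 of NC (adjusted p = 0.0417 to 0.0485), and Atf3 without replicate 5 of CAC (adjusted p = 0.0433). Atf3 ranged over 13.0 to 33.3 CPM in CAC_FPL, 12.3 to 28.8 in CAC_FP, 16.4 to 28.7 in CAC_F, 8.68 to 18.3 in CAC and 13.4 to 45.0 in NC.

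Over the whole set, 4 of the 10 genes rose in CAC_F against CAC, namely Fosl1, Fosl2, Junb and Ier3, and none fell, where 39.1% of all genes tested were called (19% higher and 20.2% lower). The number of members called is therefore near the background. Fosl1 is in these counts although it passed the filter only through FOLFOX groups, and without it 3 of 9 rose in CAC_F and none in CAC_FP or CAC_FPL. The median log2 fold change of the 10 was 0.87, beside -0.03 over all genes tested, and 9 of 10 were positive, beside 47.7% of all genes. In CAC_FP against CAC, 1 of 10 rose (Fosl1) where 18.6% of all genes were called and 9.68% were higher, with a median of 0.87 beside -0.03. In CAC_FPL against CAC, 1 of 10 rose (Fosl1) where 1.41% were called and 0.882% were higher, and the median was 1.00 beside -0.0031. All 10 were positive there, beside 49.6% of all genes. Some positive changes were smaller than their SE, such as Jund in CAC_FPL against CAC (0.07 ± 0.17). At an unadjusted p below 0.05 in edgeR's test there were 7 of 10 (Fosl1 among them), beside 18.8% of all genes. The same count in CAC_FP against CAC was 3 of 10 beside 34.6%, with 9 of 10 positive beside 47.1% of all genes. In CAC_F against CAC it was 6 of 10 beside 48.2%. The groups did not overlap, with CAC_F higher than CAC, for 3 of 10 members and 10.9% of all genes tested. With CAC_FP higher than CAC this held for 1 of 10 and 5.19%, and with CAC_FPL higher than CAC for 1 of 10 and 0.928%. These members were Fosl1, Junb and Ier3 in CAC_F and Fosl1 alone in CAC_FP and CAC_FPL. Fosl1 is in these overlap counts too although it passed the filter only through FOLFOX groups.

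**Figure D2:**
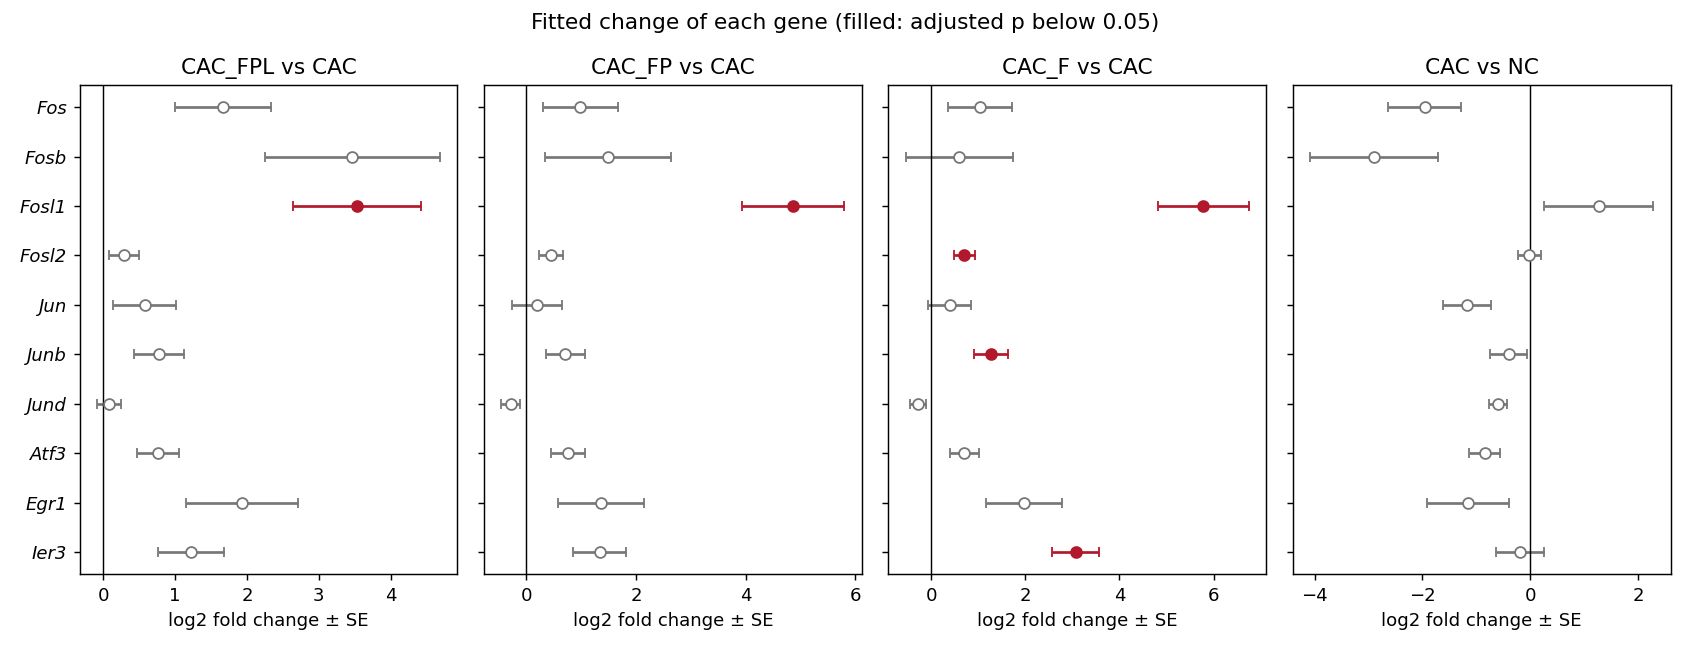
Fitted log2 fold change of each gene with its SE in 4 comparisons, each panel on its own scale, with filled points for an adjusted p below 0.05. Fosl1 passed in the 3 FOLFOX groups against CAC, at 3.53, 4.87 and 5.78, and no gene passed in CAC against NC.

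In CAC against NC 0 of 10 members passed in edgeR's test, where 0.00663% of all genes were called, and neither DESeq2 nor limma called a member. At an unadjusted p below 0.05 there were 5 of 10 members, beside 7.72% of all genes, and each of the 5 was lower in CAC. Their changes were -0.59 ± 0.17 for Jund (adjusted p = 0.392), -1.95 ± 0.68 for Fos (adjusted p = 0.493), -0.85 ± 0.29 for Atf3, -1.18 ± 0.45 for Jun and -2.90 ± 1.19 for Fosb. All 5 were smaller without replicate 2 of NC, most of all Jun and Fosb. Without it the changes were -0.39 ± 0.13 for Jund, -0.82 ± 0.54 for Fos, -0.56 ± 0.27 for Atf3, -0.28 ± 0.28 for Jun and -0.13 ± 0.88 for Fosb, and the sign of Egr1 turned, at 0.06 ± 0.65 against -1.15 ± 0.76 with it.

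Between the FOLFOX groups, 2 of 10 members were called in CAC_FPL against CAC_F, Ier3 and Fosl1, both lower in CAC_FPL, where 12.2% of all genes were called and 5.05% were lower. DESeq2 also called Fosb there, higher in CAC_FPL (2.85 ± 1.02, adjusted p = 0.0355), and without replicate 2 of NC and replicate 6 of CAC_FPL edgeR also called Jund higher (0.39 ± 0.13, adjusted p = 0.0433). No member passed in CAC_FP against CAC_F, where 0% of all genes were called. At an unadjusted p below 0.05 there was 1 of 10, Ier3, beside 15.9% of all genes, at -1.73 ± 0.48 (adjusted p = 0.132, edgeR). DESeq2 called Ier3 in this comparison and limma called no member. No member passed in CAC_FPL against CAC_FP either, where again 0% of all genes were called. There Jund alone was under an unadjusted p of 0.05, beside 6.6% of all genes, and neither DESeq2 nor limma called a member.

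Whether FOS and JUN members moved together was measured within groups, on the deviation of each library's log2 CPM from its group mean, so that differences between groups play no part. All 12 FOS and JUN pairs were computed over the 27 libraries, with 100000 permutations within groups and adjustment over the 12. Fos moved with Jun (r = 0.85, permutation p = 0.00027, adjusted p = 0.00081, rho = 0.74, permutation p of rho = 0.00157) and with Junb (r = 0.80, permutation p = 5e-05, adjusted p = 0.0006, rho = 0.75, p of rho = 0.00011). Fosb did so too, with Jun (r = 0.83, permutation p = 0.00017, adjusted p = 0.00081, rho = 0.75, p of rho = 0.00028) and with Junb (r = 0.67, permutation p = 0.00021, adjusted p = 0.00081, rho = 0.68, p of rho = 0.00019). The adjusted p of rho was 0.00471 for Fos with Jun and 0.00112 for the other 3. The 2 libraries farthest from the median on the FOS axis were replicate 2 of NC and replicate 6 of CAC_FPL. Without them r was 0.66 for Fos with Jun, 0.75 for Fos with Junb, 0.54 for Fosb with Jun and 0.56 for Fosb with Junb, and all 4 still passed by permutation (adjusted p = 0.0254, 0.0054, 0.0186 and 0.0186).

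**Figure D3:**
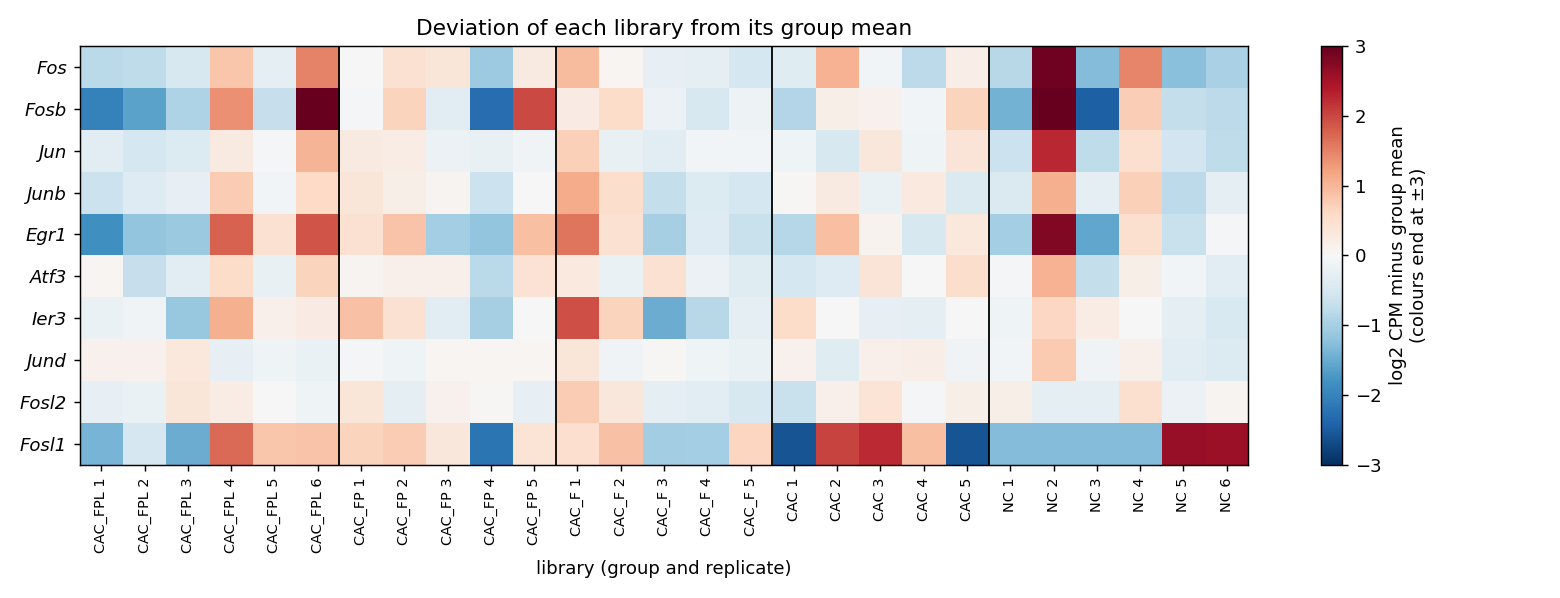
Deviation of each library from its group mean in log2 CPM, for the 10 genes (down) and 27 libraries (across, split by group), with colours ending at ±3. Fos, Fosb, Jun, Junb and Egr1 were all above their group means in NC replicate 2, CAC_FPL replicates 4 and 6 and CAC_F replicate 1. The smallest steps were Fosb in CAC_F replicate 1 (0.244) and Jun in CAC_FPL replicate 4 (0.259). Jund was above its mean in NC replicate 2 (0.793) and CAC_F replicate 1 (0.371) but below it in CAC_FPL replicates 4 and 6. Fosl1 was above its mean in CAC_FPL replicates 4 (1.705) and 6 (0.847) and CAC_F replicate 1 (0.504). In NC replicate 2, where it had 0 counts, it was below. Fosl2 was above its mean in CAC_F replicate 1 (0.772) and CAC_FPL replicate 4 (0.213) and below it in NC replicate 2 and CAC_FPL replicate 6.

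The other 8 pairs did not pass over the 27 libraries. Fos and Jund had r = 0.39 (permutation p = 0.18, adjusted p = 0.309, rho = 0.10, p of rho = 0.67, adjusted 0.804), and r was 0.03 without replicate 2 of NC and replicate 6 of CAC_FPL. Fosl1 and Jund had opposite deviations (r = -0.47, permutation p = 0.0378, adjusted p = 0.0907, rho = -0.50, p of rho = 0.0248, adjusted 0.0596). Without replicates 1 and 5 of CAC, the 2 libraries where Fosl1 was farthest from its median, r was -0.58 (permutation p = 0.0112, adjusted p = 0.0269). Most CAC and NC values of Fosl1 stand for a handful of reads or none. Fosl2 and Junb had r = 0.41 (permutation p = 0.0688, adjusted p = 0.138, rho = 0.40, p of rho = 0.0697, adjusted 0.139). The pair passed by permutation without replicate 2 of NC (r = 0.552, adjusted p = 0.0337). Without replicate 1 of CAC and replicate 1 of CAC_F, where Fosl2 was farthest from its median, r was 0.29 (permutation, adjusted p = 0.447). The remaining 5 pairs had r between -0.09 and 0.26.

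Within 1 group r was computed for the groups of 6 libraries, CAC_FPL and NC. No pair passed in either after adjustment over 12 by exact permutation, with a smallest adjusted p of 0.0533 in CAC_FPL and 0.1 in NC. Fos and Jun had r = 0.96 in CAC_FPL and 0.97 in NC, and Fos and Junb 0.94 and 0.96. Fos and Jund had r = -0.77 in CAC_FPL and 0.92 in NC, and Fosb and Jund -0.71 and 0.87. The r of 0.39 for Fos and Jund over 27 libraries includes these groups, whose r differed in sign. Neither passed (exact permutation, adjusted p = 0.11 in CAC_FPL and 0.1 in NC), and r was not computed within the other groups. Fosl1 and Jund had r = -0.95 in CAC_FPL (exact permutation p = 0.00833) and -0.66 in NC. With Junb, Fosl1 had r = 0.87 in CAC_FPL (exact permutation p = 0.0222) and -0.58 in NC. With Jun it had 0.69 (exact permutation p = 0.106) and -0.43. Most NC libraries held no reads of Fosl1.

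**Figure D4:**
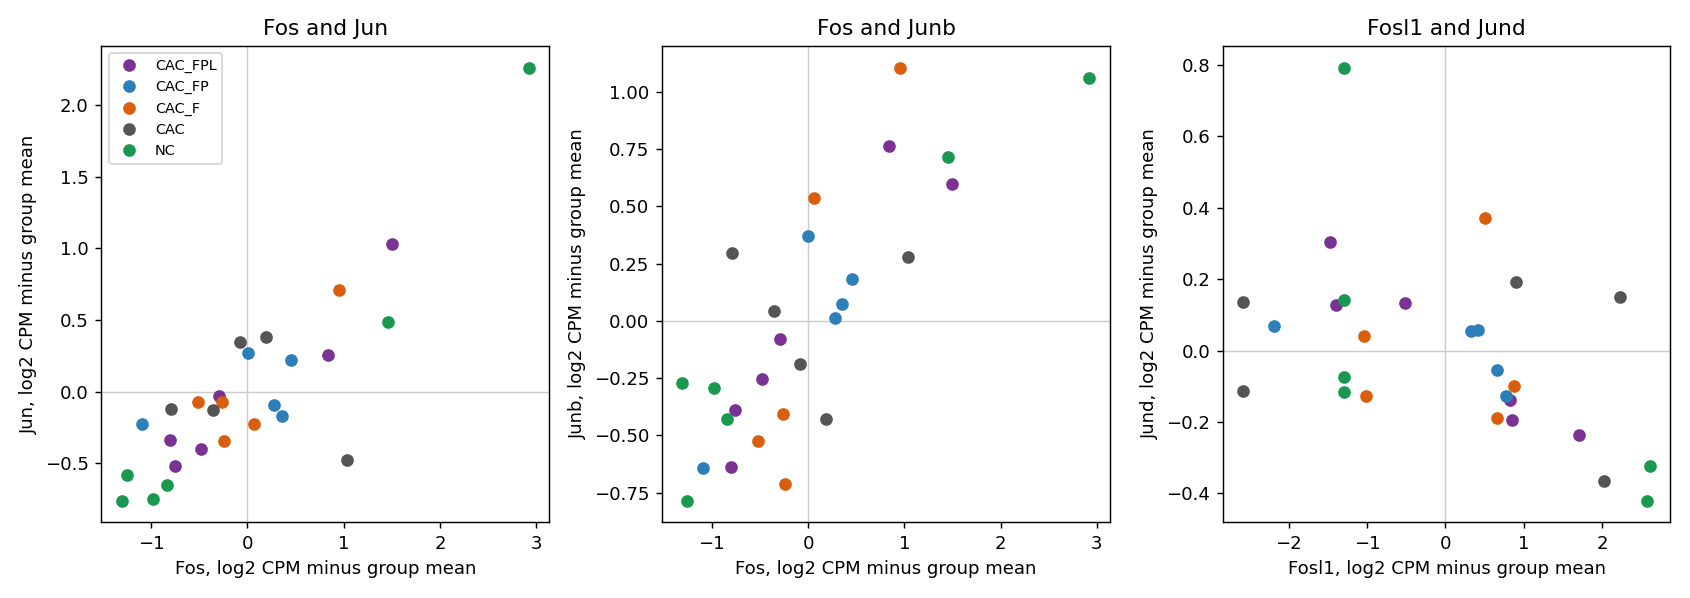
Deviations from the group mean in log2 CPM for 3 pairs, 1 point per library coloured by group. Fos and Jun (r = 0.85) and Fos and Junb (r = 0.80) lie along a rising diagonal with 1 NC library at the top right, and Fosl1 and Jund slope down (r = -0.47).

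The genes most like each member were ranked by r of the same deviations over 27 libraries, out of 15079 other genes, as a description. For Fos the first 5 were Fosb (0.87), Jun (0.85), Egr1 (0.85), Hbegf (0.85), which encodes a growth factor of the EGF family, and Junb (0.80), so that 4 of the 5 were other members. For Jun the first 5 included Fos, Fosb, Hbegf and Egr1. For Atf3 they were Fosb (0.81), Mgl2 (0.77), Jun (0.74), Rhob (0.74) and Fos (0.71). For Fosl1 they were Il36g (0.76), an epithelial cytokine of the interleukin-1 family, Mir17hg (0.74), Adpgk (0.73), Sf3b3 (0.73) and Dhx33 (0.72). The r of Fosl1 with Fos over the 27 libraries was 0.03, at rank 7062. Its values here include the CAC and NC libraries, where most stand for a handful of reads or none.

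Genes that act beside or below AP-1 were counted from 4 lists, which were chosen with earlier results of these data known. Over all genes tested, 19% rose and 20.2% fell in CAC_F against CAC, 9.68% rose in CAC_FP against CAC, 0.882% rose in CAC_FPL against CAC and 5.05% fell in CAC_FPL against CAC_F. Of 24 AP-1 target genes tested, 19 (79.2%) rose and none fell in CAC_F against CAC, with a median log2 fold change of 1.89, beside -0.03 over all genes. They include Spp1, which encodes osteopontin (3.51 ± 0.53), and Hmox1, haem oxygenase (1.97 ± 0.30). In CAC_FP against CAC 8 of the 24 (33.3%) rose, with a median of 1.00, and in CAC_FPL against CAC none passed in edgeR's test at a median of 0.78. There 10 of 24 were under an unadjusted p of 0.05 in edgeR, beside 18.8% of all genes. DESeq2 called 6 of 24 higher, beside 578 of 15065 genes, and limma called none. In CAC_FPL against CAC_F 10 of 24 (41.7%) fell, among them Mmp13 (-2.93 ± 0.62) and Mmp14 (-0.94 ± 0.24), both matrix metalloproteinases.

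Of 37 other immediate early genes tested, 22 rose and none fell in CAC_F against CAC, 6 rose in CAC_FP against CAC and 3 in CAC_FPL against CAC, with medians of 0.84, 0.36 and 0.39. The 3 were Plk3, a stress-induced kinase (1.19 ± 0.14 in CAC_F and 0.93 ± 0.14 in CAC_FPL), Phlda1 (2.01 ± 0.32 and 1.33 ± 0.30) and Socs3, an inhibitor of cytokine signalling (3.79 ± 0.60 and 2.12 ± 0.54), which had also risen in CAC_F. In CAC_FPL against CAC_F 8 of 37 fell, with the inhibitors of NF-kappaB signalling Tnfaip3 (-2.0025 ± 0.42) and Nfkbia (-1.45 ± 0.34) and the kinase Plk2 (-1.24 ± 0.27) leading. Of 15 partners and relatives of AP-1, 6 (40%) rose and 2 (13.3%) fell in CAC_F against CAC (median 0.37), with Maff at 1.69 ± 0.38 and Atf1 at 0.47 ± 0.10. Of 32 genes of the MAP kinase and serum response factor pathway, 10 (31.2%) rose and 5 (15.6%) fell (median 0.12), and the kinases Map3k7 (0.34 ± 0.07) and Map2k4 (0.39 ± 0.08) and the GTPase Nras (0.40 ± 0.09) were up by small steps. In CAC against NC no gene of the 4 lists passed in edgeR's test. An unadjusted p below 0.05 was seen in edgeR for 1 target, 3 other immediate early genes, 1 partner and 3 pathway genes, beside 7.72% of all genes. DESeq2 called 1 other immediate early gene lower, beside 16 of 14772 genes, and limma called none.

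**Figure D5:**
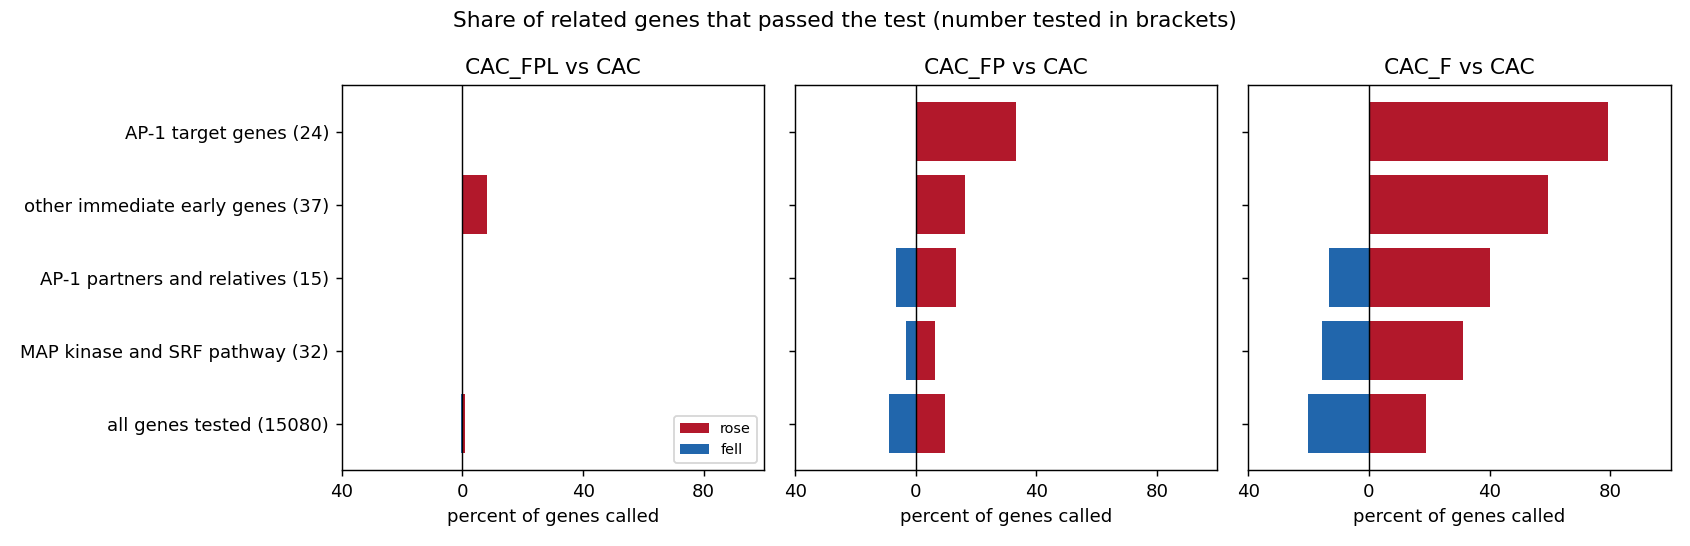
Percent of each gene list that rose (right) or fell (left) against CAC in CAC_FPL, CAC_FP and CAC_F, with the share of all genes tested as the last row. In CAC_F, 79.2% of AP-1 target genes rose, beside 19% of all genes tested.

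Several cell type markers moved with the changes in CAC_F. The summed level of 8 neutrophil markers was 281 to 1068 CPM in CAC_F and 10.0 to 131 CPM in CAC, and 2 of the 5 tested rose. Almost all of it was Ly6g (268 to 1050 CPM in CAC_F), while S100a8 lay between 0.564 and 8.05 CPM in CAC_F and 0 and 2.16 CPM in CAC, and Camp reached 0.312 CPM in CAC_F and was at 0 in every CAC library. Low markers with a higher median in CAC_F than in CAC were S100a9 (5.19 and 0.390 CPM), Mmp8 (1.54 and 0.150 CPM) and Cxcr2 (0.600 and 0.284 CPM). Cxcr2 reached 5.60 CPM in a CAC library. Csf3r differed little, with medians of 6.44 CPM in CAC_F and 6.02 CPM in CAC, and Retnlg was lower in CAC_F, at 1.95 and 2.77 CPM. The sum of 10 macrophage and monocyte markers was 1139 to 2229 CPM in CAC_F and 549 to 1129 CPM in CAC, and 6 of 10 rose. The sum of 10 stratified squamous markers was 10.1 to 47.0 CPM in CAC_F and 0.686 to 14.4 CPM in CAC, with 2 of the 4 tested higher, while Sprr1b and Krtdap were at 0 in every CAC_F library. The sum of 10 smooth muscle markers was 1736 to 3071 CPM in CAC_F and 3461 to 15754 CPM in CAC, and 9 of 10 fell. Mitochondrial genes took 4.01 to 5.34% of counts in CAC_F and 5.44 to 11.7% in CAC. With the mean level of the smooth muscle markers added to the model, Fosl1, Fosl2, Junb and Ier3 remained called in CAC_F against CAC and Egr1 (2.93 ± 0.96, adjusted p = 0.0248) and Atf3 (1.28 ± 0.36, adjusted p = 0.0110) joined them. The smooth muscle sums of CAC_F and CAC did not overlap, so in this fit muscle content and group cannot be told apart. Of the other lists, 1 of 9 colon epithelium markers rose, 2 of 8 fibroblast markers rose and 1 fell, 1 of 12 heat shock genes rose and 4 fell, and 0 of 6 endothelium markers passed in edgeR, DESeq2 or limma (0 at an unadjusted p below 0.05 in edgeR). The part of the immune and squamous markers in the results was not tested. In replicate 2 of NC the summed level of 12 heat shock genes was 6817 CPM, within the NC range of 4305 to 7965 CPM, and in replicate 6 of CAC_FPL it was 7391 CPM, the highest of a group that began at 3732 CPM.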

How the data were processed

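RNA from 27 samples of whole colon tissue was sequenced as stranded mRNA libraries made with the dUTP method, per the labels' protocols. The table the authors deposited holds raw counts per gene, whole numbers for 39971 genes, and beside them the FPKM values the authors deposited, rounded to 2 decimals. Per the submitters' processing notes, cutadapt 1.9, FastQC and HISAT2 were used. Of the counting tool, the annotation and the build, the sources used here give none. Gene coordinates are therefore not printed, and promoter windows come from RefSeq with its build.

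Groups were taken from the sample labels. The labels number the libraries within a group and name no animals, so p-values measure the spread between these samples. Genes with at least 1 FPKM in at least 5 of 27 libraries were tested (15080 genes, holding at least 99.0% of the counts of every library) in R 4.3.3 with edgeR 4.0.16, on the deposited counts with TMM scaling and 1 coefficient per group, with Benjamini-Hochberg adjustment over all genes tested and a threshold of 0.05. The step was tested on simulated data. The SE of a fold change was taken as its size divided by the root of its F statistic. CPM use the TMM-scaled library sizes, and log2 CPM a prior count of 0.5. Correlations used 100000 permutations within groups, or exact permutation within 1 group of 6. DESeq2 1.42.0, limma 3.58.1 on log2(FPKM + 1) and log2(FPKM + 0.1), and voom were alternatives, along with RLE size factors, other filters, only the groups compared, a smooth muscle covariate, a replicate block and leaving out each library in turn. Under alternatives, a fold change was followed only where it was at least its SE, and a correlation only where r was at least 0.3 in size. The members and the 12 gene lists used beside them were chosen with earlier results of these data known. Members were all named. For each list, up to 3 called genes with the smallest p were named. A few genes that these rules name are not reported here.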

Additional observations from a re-analysis of the deposited data

Results flagged for a closer look

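In each of the 50 sets of 5 or 6 libraries formed by 1 gene in 1 group, the most extreme library was set against its nearest neighbour by Dixon's ratio on CPM. For normally distributed values chance exceeds its limit in about 1 group in 20. CPM need not be normal and the sets share libraries, so the number of flags cannot be set against that rate. The limit was exceeded in 11 sets, each time by the highest library, and replicate 2 of NC gave 6 of them. That library had 561 CPM for Fos, 120.0 for Fosb, 628 for Jun, 646 for Jund, 45.0 for Atf3 and 285 for Egr1, each far above the other 5 NC libraries.

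Replicate 6 of CAC_FPL exceeded it for Fosb, at 157 CPM, and for Jun, at 236 CPM. Replicate 1 of CAC_F exceeded it for Fos, at 144 CPM, and for Jun, at 174 CPM. Replicate 1 of CAC exceeded it for Ier3, at 16.3 CPM, which is a small step above the 9.13 to 11.2 CPM of the other CAC libraries. What set these libraries apart was not tested.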

How the results depend on the processing

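Of 2098 values of single genes or pairs under alternatives, 1999 kept their direction and their side of the threshold, 44 lost a call, 52 gained one and 3 reversed. Egr1 in CAC against NC reversed to 0.0638 without replicate 2 of NC and to 0.06379 without replicate 2 of NC and replicate 6 of CAC_FPL, a pair left out after seeing the data, and it lay between -1.43 and 0.0638 without single libraries. The r of Fos and Jund reversed to -0.072 without replicate 2 of NC and lay between -0.072 and 0.508 without single libraries. Ier3 passed in CAC_FP against CAC on leaving out any 1 of 7 libraries, replicate 3 or 4 of CAC_FPL, 4 of CAC_FP or 1, 3, 4 or 5 of CAC_F (adjusted p = 0.0193 to 0.0492), and in CAC_FP against CAC_F without replicate 3 of CAC_F (adjusted p = 0.0233, edgeR). Atf3 passed in CAC_FP against CAC without replicate 4 of CAC_FP (adjusted p = 0.0342) or 2 of NC (0.0486), and Fosb in CAC_FPL against CAC_F without replicate 2 of NC (0.0446). The cause of each shift below was not tested. Members called in CAC_FPL against CAC were 0 with no filter, with a mean FPKM of at least 5, with limma on log2(FPKM + 1), with only the groups compared, with the smooth muscle covariate, with the replicate block and without replicate 2 of NC and replicate 6 of CAC_FPL, and 2 with DESeq2. In CAC_FPL against CAC_F they were 1 with no filter, with a mean FPKM of at least 5 (which leaves Fosl1 untested), with the smooth muscle covariate, with the replicate block and without replicate 2 of CAC and replicate 3 of CAC_FPL, 0 with only the groups compared, and 3 with DESeq2 and without replicate 2 of NC and replicate 6 of CAC_FPL. In CAC_FP against CAC they were 2 with RLE size factors, with DESeq2 and without replicate 2 of NC and replicate 6 of CAC_FPL, and 3 with limma on log2(FPKM + 0.1), only the groups compared and the smooth muscle covariate. In CAC_FP against CAC_F DESeq2 called 1. Leaving out single libraries gave 3 to 6 members in CAC_F against CAC, 1 to 3 in CAC_FP against CAC, 0 to 1 in CAC_FPL against CAC, 0 to 3 in CAC_FPL against CAC_F and 0 to 1 in CAC_FP against CAC_F, and 4 to 5 correlated pairs. The replicate numbers were not taken to pair samples, since the deviations of same-numbered libraries correlated between -0.454 and 0.349, and 7 of 35 libraries correlated best with the library of their own number in the other group. With the replicate block, CAC_F against CAC gave 5723 genes and 4 members and CAC_FPL against CAC_F 2053 genes. Counts over all genes moved too. In CAC against NC the main count of 1 became 41 with DESeq2, 3 with limma on log2(FPKM + 1), 2 on log2(FPKM + 0.1), 2 with voom, and 0 with only the groups compared, the replicate block and without replicate 2 of NC and replicate 6 of CAC_FPL (0 to 6 without single libraries). In CAC_F against CAC 5902 became 3708 with a mean FPKM of at least 5, where fewer genes were tested (4905 to 6139 without single libraries). In CAC_FP against CAC 2802 became 1437 with the smooth muscle covariate and 3867 without replicate 2 of CAC and replicate 3 of CAC_FPL (1515 to 3448). In CAC_FP against CAC_F 0 became 247 with DESeq2 (0 to 616). In CAC_FPL against CAC 212 became 82 with no filter, 860 with DESeq2, 9 with only the groups compared, 95 with the replicate block, 1267 without replicate 2 of CAC and replicate 3 of CAC_FPL and 111 without replicate 2 of NC and replicate 6 of CAC_FPL (23 to 797). In CAC_FPL against CAC_F 1838 became 743 with no filter, 0 with only the groups compared and 1112 without replicate 2 of CAC and replicate 3 of CAC_FPL (426 to 2540). In CAC_FPL against CAC_FP 0 became 21 with DESeq2 (0 to 4). At this depth CAC and NC held 29 and 14 reads of Fosl1 in all, so its fold changes against them rest on few counts.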
